A study of Mus musculus with 6 samples.

Results

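Imprinted genes of fetal growth were examined in embryonic mouse skin with and without the Wnt receptor Frizzled 6. The genes taken were H19, Dlk1, Meg3, Peg3, Mest, Plagl1, Cdkn1c, Grb10 and Ndn, and every probe set annotated to 1 of them alone was read on all 6 arrays. This gave 34 probe sets for 8 of the 9 genes, out of 45037 probe sets tested and 18193 genes with a symbol. H19 had no probe set of its own. The probe set that names it is annotated jointly with the microRNA gene Mir675, and H19 was therefore not analysed here.

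An imprinted gene is transcribed mainly from the copy inherited from 1 parent, under methylation marks that are set in the germ line. Many such genes are abundant in fetal mesoderm and fall after birth. As a broad rule, genes read from the paternal copy promote growth, and genes read from the maternal copy restrain it. Among the genes examined, Dlk1, Peg3, Mest, Plagl1 and Ndn are known as paternally expressed, and H19, Meg3, Cdkn1c and, outside the nervous system, Grb10 as maternally expressed.

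The skin was taken from the back of embryos at embryonic stage E15.5 on a mixed C57BL6/129 background. The control group held 3 samples that were Fzd6 +/-, so the controls also lacked 1 copy of the gene, and the knockout group held 3 samples that were Fzd6 -/-. No wild-type skin and no treatment entered. The labels call the samples biological replicates without saying whether each is 1 embryo, so the p-values measure the spread between these samples.

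The arrays were Affymetrix MOE430 2.0, on which a set of short probes reads each transcript. Values are RMA expression summaries on the log2 scale, where a difference of 1 is a doubling. Array medians lay between 5.99 and 6.03. Levels of different probe sets are not comparable with each other, and a name ending in x or s marks a set with probes that also match other transcripts. The keratins Krt5, Krt14 and Krt10 and the collagens Col1a2 and Col3a1 were at 12.7 to 14.2. Markers of the Y chromosome (3 genes) averaged -3.32 in control 2 and -3.30 in knockout 3 relative to their 6-array mean, and 1.43 to 1.94 on the other arrays. Of the 3 probe sets of the targeted gene Fzd6, 2 had all knockout arrays below all controls, as had 5% of all probe sets. They lay at 8.71 to 9.07 against 9.11 to 9.51 and at 5.36 to 5.53 against 6.09 to 6.22. The third did not separate the groups. The 2 differed by -0.44 and -0.67, and neither passed after adjustment over all probe sets (adjusted p = 0.909 and 0.864 by limma). The test used below thus did not call the targeted gene itself.

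The sequences below are shown for the neighbours Dlk1 and Meg3, which share a domain, and for Peg3, whose window holds the motif searched. Each line gives the 250 bases before a transcription start from RefSeq (GRCm38.p6), 5′ to 3′, and capitals mark CpG, the dinucleotide that carries DNA methylation. They cover chr12:109452573-109452822 on the plus strand for Dlk1, chr12:109540746-109540995 on the plus strand for Meg3 and chr7:6730420-6730669 on the minus strand for Peg3. The Dlk1 window lies inside the annotated gene, which begins at 109452485, and precedes a downstream start. The Peg3 window overlaps the annotated gene, whose 5′ end is at 6730462.
Dlk1: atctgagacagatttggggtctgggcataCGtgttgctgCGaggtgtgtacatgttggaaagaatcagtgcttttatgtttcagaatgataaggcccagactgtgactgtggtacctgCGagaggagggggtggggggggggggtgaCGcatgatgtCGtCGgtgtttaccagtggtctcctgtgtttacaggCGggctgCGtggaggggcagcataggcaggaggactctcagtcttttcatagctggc
Meg3: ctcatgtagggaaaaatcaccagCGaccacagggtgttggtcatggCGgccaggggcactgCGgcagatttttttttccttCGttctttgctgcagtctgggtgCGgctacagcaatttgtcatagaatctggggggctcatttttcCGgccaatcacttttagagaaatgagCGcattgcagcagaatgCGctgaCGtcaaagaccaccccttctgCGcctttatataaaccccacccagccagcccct
Peg3: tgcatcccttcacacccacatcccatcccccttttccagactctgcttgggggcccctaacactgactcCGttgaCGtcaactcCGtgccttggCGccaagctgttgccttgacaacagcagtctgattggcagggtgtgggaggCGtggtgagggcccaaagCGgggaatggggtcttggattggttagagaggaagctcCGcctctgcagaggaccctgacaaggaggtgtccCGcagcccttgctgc
These windows hold 8, 10 and 8 CpG respectively, against a median of 6 over 32851 promoters. The window with the most among the genes examined was that of a Grb10 start, with 40. A window before another Meg3 start held 0, and that of Ndn held 5. RefSeq windows were matched for 7 of the 9 genes, 11 windows in all. The motif GGGGCCCC, which reads the same on both strands and is known as a core of PLAGL1 binding, occurred in 1 of the 11, that of Peg3, where it begins 201 bases before the start. Of all promoters, 0.889% hold it. The Meg3 window shown holds TATAAA beginning 25 bases before the start, a motif looked for after the windows were seen. Of all promoters, 12.4% hold it on either strand. It overlaps no GGGGCCCC. Methylation and binding were not measured here.

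The microRNA gene that shares the probe set of H19 lies inside the H19 transcript, at chr7:142575530-142578146 in GRCm38.p6. Its mature products show what the joint annotation refers to, with the seed (bases 2 to 8) in capitals. They differ in seed.
mmu-miR-675-5p: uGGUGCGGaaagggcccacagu
mmu-miR-675-3p: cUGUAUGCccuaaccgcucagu

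No probe set of the 8 genes passed the test between genotypes. Most lay slightly lower in knockout skin, by a median of -0.19 (0.0018 over all probe sets), while several varied more between arrays of 1 genotype. In whole skin, fewer cells of a type and less RNA per cell cannot be told apart. With limma p-values adjusted by Benjamini-Hochberg across the 45037, 0 of 34 had an adjusted p under 0.05 (smallest 0.909), where 0% of all probe sets did. Below an unadjusted p of 0.05 lay 3 of 34, against 5.21% of all probe sets. All 3 were lower in the knockout, where 2.63% of all were lower at that p. Means were lower in knockout skin in 30 of 34, where 49.4% of all probe sets and 59.2% of those at or above the median level were lower. Among those at or above that level it was 26 of 28. The brightest probe set of each gene was lower in 8 of 8 genes, against 47.6% of all genes at any level. These 8 sets lay above the median level, where the share over all probe sets was the 59.2% given above. Both counts moved with knockout 1. Without that array the brightest sets of Meg3 (0.05), Dlk1 (0.31), Peg3 (0.05) and Ndn (0.02) were higher in knockout skin. Of the 34 probe sets, 18 were then lower, with a median of -0.03, where 46.6% of all probe sets were lower. Without the first replicate of both groups, 28 of 34 were lower at a median of -0.08, against 46.7% of all probe sets at a median of 0.01.

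The labels do not say that the replicate numbers pair the arrays, and a pairing was taken from these same data. Deviations from group means correlated at 0.568, 0.359 and 0.124 within numbers 1, 2 and 3, but control 2 correlated more with knockout 3 (0.422). With the number as a block in limma, the count at an unadjusted p under 0.05 was 10 of 34, against 12% of all probe sets. All 10 were lower, where 6.88% of all probe sets were lower at that p. They belonged to Meg3 (6), Peg3, Mest, Plagl1 and Grb10 (1 each). None passed the adjusted threshold in the blocked limma fit (smallest adjusted p = 0.335), where 0.00666% of all probe sets did.

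**Figure D1:**
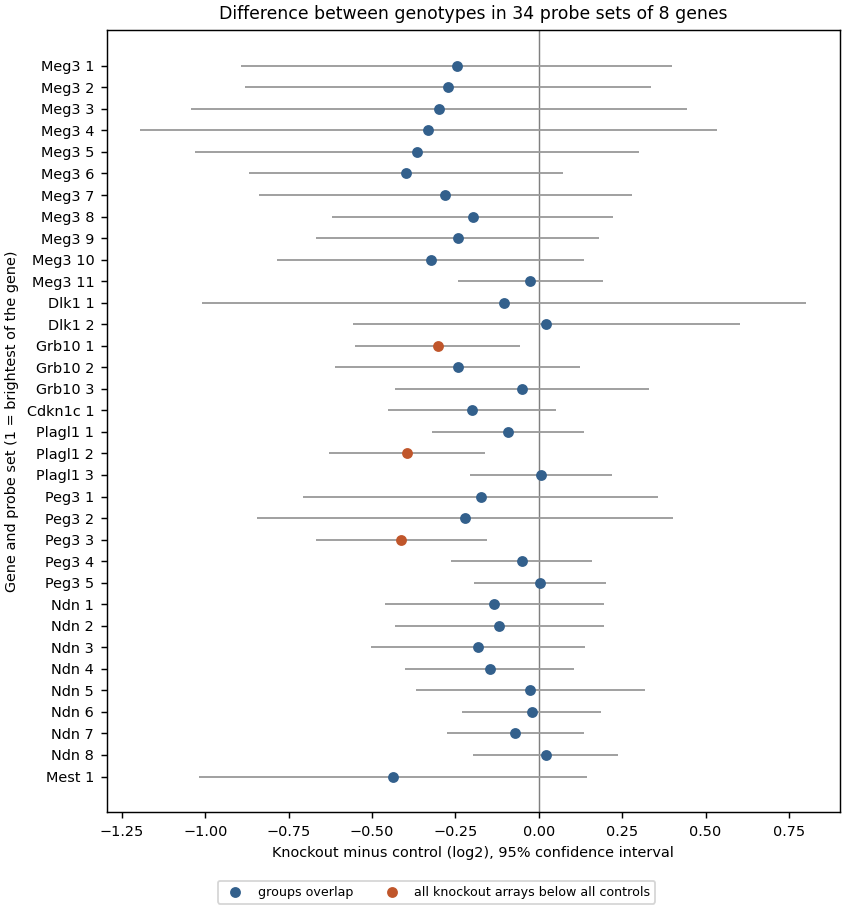
Knockout minus control difference (log2, horizontal axis) of each of the 34 probe sets, ordered by gene and by level within the gene, with the 95% confidence interval from limma. Points lie left of 0 in 30 of 34, and the 3 in orange are those with every knockout array below every control.

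The noncoding RNA Meg3, a maternally expressed transcript made downstream of Dlk1 and known as a growth suppressor, was read by 11 probe sets. Its brightest measured 12.87, 13.58 and 13.36 in controls 1 to 3 and 12.44, 13.25 and 13.39 in knockouts 1 to 3. That set has probes shared with other transcripts. Both arrays numbered 1 were low, and the groups overlapped. The means were 13.27 ± 0.36 and 13.03 ± 0.52 (SD, n = 3), a difference of -0.25 (95% interval by limma -0.89 to 0.40, adjusted p = 0.946 by limma). Its 11 probe sets all had a lower mean in knockout skin, from -0.40 to -0.03, and 10 of the 11 were lowest in knockout 1. In the 5 brightest, which lay above 11 on average, the difference was -0.44 to -0.58 within replicate number 1, -0.27 to -0.54 within number 2 and -0.05 to 0.04 within number 3. The third pair thus showed next to no difference. Without knockout 1 the brightest probe set differed by 0.05 in the other direction.

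Dlk1 is a membrane-bound and secreted relative of the Notch ligands that holds back fat cell differentiation. Among the brightest probe sets of the genes examined, Dlk1 showed the widest spread between arrays. Its brighter probe set, with probes shared with other transcripts, read 11.50, 12.53 and 12.30 in the controls. It read 11.18, 12.48 and 12.35 in the knockouts. Control 1 and knockout 1 stood well below the rest, whatever their genotype. The range over 6 arrays was 1.35, or 2.56-fold, and its SD of 0.57 was above that of 98.8% of genes. The genotypes differed by -0.10 (-1.01 to 0.80, adjusted p = 0.99 by limma). The dimmer probe set, at 6.35 to 7.29, differed by 0.02 (-0.56 to 0.60) and was lowest in control 1, where the brighter was lowest in knockout 1. Without knockout 1 the brighter set differed by 0.31, without control 2 by 0.11 and without both arrays numbered 1 by 0.0024.

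Grb10, an adaptor that binds insulin-type receptors and restrains fetal growth, gave the clearest separation among the brightest probe sets. It read 11.85, 12.11 and 11.75 in the controls and 11.62, 11.58 and 11.61 in the knockouts. All 3 knockout arrays lay below all 3 controls and close to each other. The means were 11.91 ± 0.19 and 11.60 ± 0.02, a difference of -0.30 (-0.55 to -0.06) or 0.81-fold, with an unadjusted p of 0.0225 that did not pass over all probe sets (adjusted p = 0.909 by limma). Groups without overlap, with the knockout lower, were found in 3 of the 34 probe sets and in 5% of all. The 3 were among the 28 at or above the median level, where 6.34% of all were so. The next probe set of Grb10 differed by -0.24 (-0.61 to 0.12), with control 3 at 7.44 below every knockout array. The dimmest, at 5.14 to 5.67, differed by -0.05 (-0.43 to 0.33).

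Cdkn1c encodes p57, a cyclin-dependent kinase inhibitor that stops cells from dividing, and was read by 1 probe set. Its values were 12.42, 12.57 and 12.50 in the controls and 12.37, 12.09 and 12.42 in the knockouts. Knockout 2 was the low array here, where knockout 1 was for Meg3 and Dlk1. The difference was -0.20 (-0.45 to 0.05), or 0.87-fold, and did not pass (adjusted p = 0.909 by limma). Without knockout 2 it was -0.10. The mean of the 10 skeletal muscle markers, all above the median level, was also lowest in knockout 2, at -0.52 against -0.29 to 0.43 on the other arrays relative to their 6-array mean, and their part in the result was not tested.

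Plagl1, a zinc finger transcription factor that restrains cell division and regulates other imprinted genes, gave 3 probe sets that disagreed. The brightest, a set with probes shared with other transcripts, read 13.38, 13.62 and 13.42 in the controls and 13.27, 13.44 and 13.44 in the knockouts, a difference of -0.09 (-0.32 to 0.14). The groups overlapped, and the difference was -0.02 without control 2, -0.04 without knockout 1, -0.14 without control 1 and -0.16 as the mean over the 3 sets. The middle probe set read 7.81, 7.85 and 7.74 in the controls and 7.58, 7.35 and 7.28 in the knockouts. There all knockout arrays lay below all controls, with a difference of -0.40 (-0.63 to -0.16) or 0.76-fold. Its unadjusted p of 0.00499 did not pass (adjusted p = 0.909 by limma). Each same-numbered pair was lower there, by -0.23, -0.50 and -0.45. The dimmest probe set differed by 0.01 (-0.21 to 0.22), and a difference read by the middle set alone need not hold for the gene.

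Peg3, a large zinc finger protein read from the paternal copy, had 5 probe sets, of which 2 lay at 2.72 to 2.98, near the bottom of the range, and differed by -0.05 and 0.0040. The brightest read 12.20, 12.87 and 12.64 in the controls and 11.95, 12.60 and 12.63 in the knockouts, a difference of -0.17 (-0.71 to 0.36, adjusted p = 0.953 by limma). The arrays numbered 1 were low in both groups, as for Meg3. The third in brightness read 9.74, 9.95 and 10.03 in the controls and 9.35, 9.53 and 9.60 in the knockouts. These groups did not overlap, and the difference of -0.41 (-0.67 to -0.16), or 0.75-fold, had an unadjusted p of 0.00627 (adjusted p = 0.909 by limma). It was nearly the same in each same-numbered pair, at -0.39, -0.42 and -0.43. The remaining set, second in brightness, differed by -0.22 (-0.85 to 0.40), with -0.47, -0.28 and 0.08 within the pairs. Without knockout 1 the brightest set differed by 0.05 in the other direction.

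Ndn encodes necdin, a MAGE family protein that limits proliferation and promotes differentiation of neurons and muscle. Of its 8 probe sets, 5 lay between 10.69 and 11.87 on every array and 3 between 3.11 and 4.38. The brightest, a set with probes shared with other transcripts, read 11.70, 11.86 and 11.77 in the controls. It read 11.33, 11.73 and 11.87 in the knockouts. Knockout 1 was low, and the other 5 arrays lay close together. The 5 bright sets differed by -0.18 to -0.03, none with an interval clear of 0. Without knockout 1 the brightest differed by 0.02 in the other direction.

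Mest, a paternally expressed member of the hydrolase fold family, was read by 1 probe set, with the largest difference of the 34. It read 11.78, 12.39 and 12.38 in the controls and 11.25, 11.87 and 12.11 in the knockouts. The groups overlapped only through control 1, which lay below knockouts 2 and 3. The means were 12.18 ± 0.35 and 11.74 ± 0.44, a difference of -0.44 (-1.02 to 0.14) or 0.74-fold, which did not pass (adjusted p = 0.911 by limma). Within same-numbered pairs it was -0.53, -0.52 and -0.27, and with the block the interval was -0.64 to -0.24 (adjusted p = 0.335 in the blocked limma fit). Leaving out single arrays gave -0.64 to -0.19, the smallest without knockout 1.

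**Figure D2:**
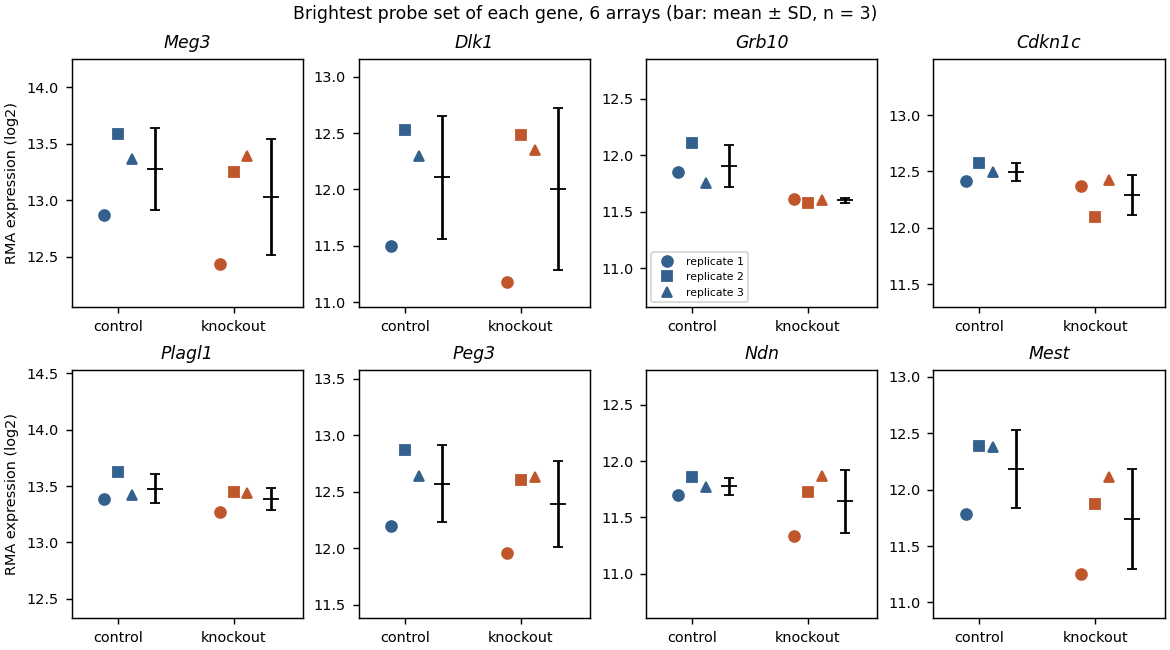
RMA expression (log2, vertical axis, each panel spanning 2.2) of the brightest probe set of each gene on the 3 control and 3 knockout arrays, with symbols for the replicate number and bars for mean ± SD. Replicate 1 is lowest in both groups for Meg3, Dlk1, Plagl1, Peg3, Ndn and Mest, and the groups separate only for Grb10.

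The level of several of these genes thus moved more between arrays than between genotypes. At or above the median level lay 28 of the 34 probe sets, with a median SD over 6 arrays of 0.28, against 0.16 for all probe sets at or above it. Among the brightest sets the SD of Mest (0.43), Meg3 (0.42) and Peg3 (0.34) exceeded that of 96.7%, 96.4% and 92.9% of genes, while those of Ndn (0.20), Grb10 (0.20), Cdkn1c (0.16) and Plagl1 (0.11) stood at 73.9%, 76.1%, 63.0% and 35.1%. Knockout 1 was the lowest of the 6 arrays in 24 of 34 probe sets, against 23.4% of all, and control 2 the highest in 24 of 34, against 17.6% of all. At or above the median level these were 22 of 28, against 29.1%, and 23 of 28, against 22.7%. Lower in each of the 3 same-numbered pairs were 10 of 34, against 17.9% of all, or 10 of 28, against 24.8%. These shares describe the arrays and carry no test, since the array was picked after its values were seen and probe sets of 1 gene share their source.

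The array profiles fell into unlike shapes. Dlk1, Meg3, Peg3 and Mest shared low values in both arrays numbered 1, and Ndn in knockout 1. Meg3 and Peg3 were the closest pair of the 28, with a root mean square difference of 0.09 between their centred values over 6 arrays, and Dlk1 and Cdkn1c the most distant at 0.54. Meg3 and Dlk1, which share a domain and are read from opposite parental copies, differed by 0.19. Grb10 and Cdkn1c, at 0.13 from each other, were not low in control 1.

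The mean levels of the fibroblast and endothelial markers were low on the same arrays as Dlk1 and Meg3. Not every marker followed these means. Dpt was lowest in control 2, Pdgfra was higher in control 1 than in control 3, and for Tek control 1 was the highest control. Relative to their 6-array means, the 8 fibroblast markers averaged -0.32, 0.29 and 0.15 in the controls and -0.65, 0.33 and 0.20 in the knockouts, and all 8 lay above the median level. The 7 endothelial and pericyte markers averaged -0.38, 0.31 and 0.28 in the controls and -0.83, 0.28 and 0.34 in the knockouts. The genotypes differed by -0.08 and -0.14 (exact permutation p = 0.9 and 0.8, two-sided, 0.9 for both after adjustment over 13 marker lists, where the smallest p this design allows is 0.1). The 7 suprabasal keratinocyte markers, 6 of them above the median level, averaged -0.47, -0.39 and -0.11 in the controls and 0.65, 0.20 and 0.12 in the knockouts. The 5 mast cell markers, 4 of them above that level, averaged -0.49, -0.62 and 0.02 in the controls and 0.46, 0.24 and 0.39 in the knockouts. In both of these lists every knockout array lay above every control, with differences of 0.65 and 0.72 (exact permutation p = 0.1 for each, two-sided, 0.52 after adjustment over the 13 lists). The 4 adipocyte lineage markers, 3 of them above that level, averaged 1.29 in control 1 and -0.42 to -0.15 on the other arrays. Among them Adipoq read 8.64 in control 1 and 3.32 to 3.48 on the others, while Cebpa was lowest in control 1. The genotypes differed by -0.56 in this list (exact permutation p = 0.4, two-sided, 0.812 after adjustment over the 13 lists). The part of these lists in the values of the imprinted genes was not tested.

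**Figure D3:**
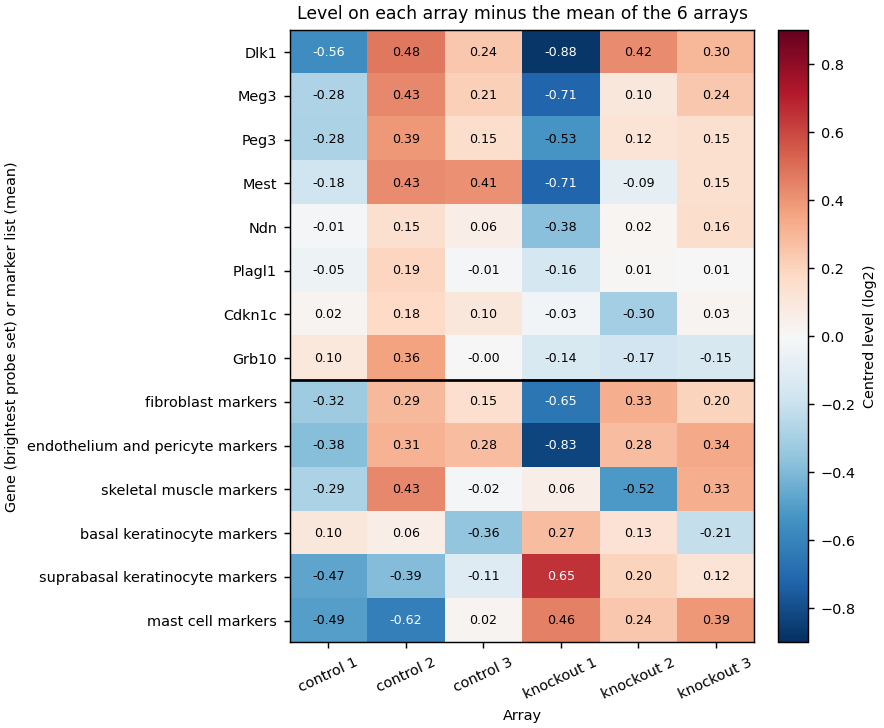
Level of each gene (brightest probe set, above the line) and mean level of 6 marker lists (below it) on each array, minus the mean of the 6 arrays (log2, colour and number). Knockout 1 is the lowest array for Dlk1, Meg3, Peg3, Mest, Ndn and Plagl1 and for the fibroblast and endothelial markers, and control 1 is low for the first 4 of these genes.

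Genes outside the set with the most similar pattern were sought among 11841 genes above the median level, as those with the smallest root mean square difference from the mean centred profile of the 8 genes over 6 arrays. That profile was -0.15, 0.32 and 0.15 in the controls and -0.44, 0.01 and 0.11 in the knockouts. The nearest were Cdh11, a cadherin of mesenchymal cells (0.027), Asap2, a GTPase-activating protein (0.028), the poly(A)-binding protein gene Pabpc4 (0.030), the bromodomain gene Brd3 (0.038) and the membrane hyaluronidase gene Cemip2 (0.039). The 8 genes themselves lay at 0.083 (Peg3) to 0.31 (Dlk1) from their own mean.

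Neighbours in the same imprinted domains were measured for 29 of 34 listed genes, with 50 probe sets. None passed the adjusted threshold in limma (smallest adjusted p = 0.909), and 2 of 50 lay below an unadjusted p of 0.05, against 5.21% of all probe sets. With the replicate block there were 7 of 50, against 12%. Means were lower in knockout skin in 27 of 50, close to the 49.4% of all probe sets. By brightest probe set 16 of 29 genes were lower, with a median of -0.04.

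In the domain of Dlk1 and Meg3, the brightest probe sets of the noncoding RNAs Rian and Mirg carried the low values of the arrays numbered 1. The dimmest Rian set did not, at 8.04, 8.02 and 7.98 in the controls and 7.80, 7.71 and 8.12 in the knockouts. The brightest Rian probe set read 11.71, 12.62 and 12.65 in the controls and 11.84, 12.24 and 12.57 in the knockouts, with a difference of -0.11 (-0.77 to 0.56). The brighter Mirg set read 8.85, 9.67 and 9.51 in the controls and 8.46, 9.27 and 9.54 in the knockouts, with -0.26 (-0.98 to 0.46). In both genes the spread between arrays exceeded the difference between genotypes.

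In the domain of H19, the fetal growth factor gene Igf2 read 13.66, 13.89 and 13.69 in the controls and 13.39, 13.74 and 13.75 in the knockouts, a difference of -0.12 (-0.41 to 0.17). Its dimmer probe set was at 6.33 and 6.30 in control 1 and knockout 1 and at 7.09 to 7.33 on the other arrays. The insulin gene Ins2, at 6.32 to 6.84, was read by a set with probes shared with other transcripts. That set had an unadjusted p of 0.0478 with a knockout minus control value of 0.27 (0.00 to 0.54, adjusted p = 0.909 by limma).

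In the domain of Ndn, the ubiquitin ligase gene Mkrn3 read 5.28, 5.71 and 5.50 in the controls and 5.11, 4.84 and 5.25 in the knockouts, below the array medians. Its groups did not overlap, and it differed by -0.43 (-0.77 to -0.09, adjusted p = 0.909 by limma). Such groups, with the knockout lower, were found in 3 of the 50 neighbour probe sets and in 5% of all. The others were Kcnq1 and a dim set of Kcnq1ot1, and at or above the median level there were 0 of 32. Magel2, a MAGE family relative of necdin, differed by -0.30 (-0.79 to 0.18). Near Cdkn1c, the brightest probe set of the noncoding RNA Kcnq1ot1 differed by -0.27 (-0.71 to 0.18), and its other sets by -0.26 to 0.13. The placental growth regulator Phlda2 differed by -0.08 (-0.52 to 0.36). Near Grb10, the actin regulator Cobl differed by 0.45 (-0.07 to 0.96) in 1 probe set and -0.02 (-0.64 to 0.60) in the other. In the Peg3 domain, the 2 sets of Usp29 differed by -0.18 and -0.16, both at 4.02 to 5.25.

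**Figure D4:**
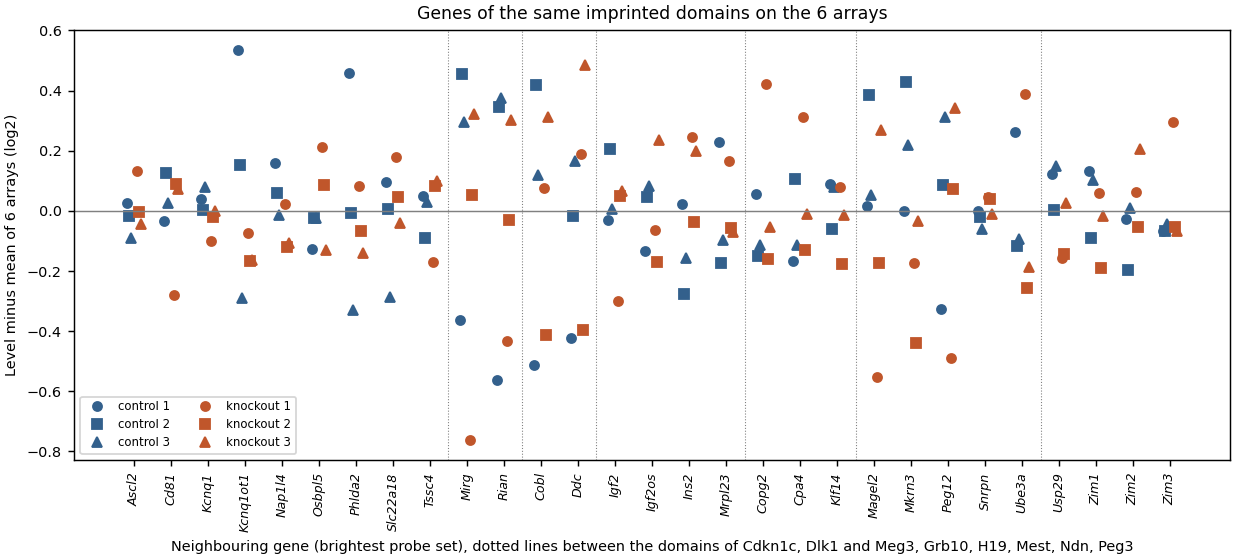
Level of the brightest probe set of each of the 29 neighbouring genes on each array, minus the mean of the 6 arrays (log2, vertical axis), with genes ordered by domain. The arrays numbered 1 (circles) lie low in both groups for Rian, Mirg and Peg12. For Mkrn3 and Kcnq1 all knockout arrays lie below the controls, as in 3 of the 50 neighbour probe sets and 5% of all.

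Of 27 other imprinted genes listed, 22 were measured with 52 probe sets, none called in limma (smallest adjusted p = 0.909). Below an unadjusted p of 0.05 lay 3 of 52, against 5.21% of all probe sets. They were lower, where 2.63% of all were lower at that p, and belonged to H13, Sfmbt2 and Airn. With the replicate block there were 11, all lower, against 12% of all probe sets. The noncoding RNA Airn, antisense to the growth factor clearance receptor gene Igf2r, had -0.35 (-0.66 to -0.04) in that set and -0.30 to -0.13 in its 4 others. Which strand the probes read was not examined. The polycomb-related gene Sfmbt2 differed by -0.45 in 1 set and 0.02 in the other, the signal peptide peptidase gene H13 by -0.30 in that set and 0.15 in its brightest, and Blcap by -0.19 (-0.38 to 0.00). Igf2r itself read 9.60, 10.56 and 10.00 in the controls and 9.32, 10.13 and 10.20 in the knockouts, low again in the arrays numbered 1, with a difference of -0.17 (-0.86 to 0.53).

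Of 14 genes that set or keep imprints, all were measured, with 31 probe sets and none called in limma (smallest adjusted p = 0.909). Below an unadjusted p of 0.05 lay 1 of 31, against 5.21% of all probe sets, and with the replicate block 3 lower and 1 higher, against 12%. The 1 was a probe set of Tet1, which oxidises methylcytosine. It read 6.29, 6.73 and 6.60 in the controls and 5.94, 6.28 and 6.05 in the knockouts, a difference of -0.45 (-0.78 to -0.12) with control 1 and knockout 2 all but level. Its 3 other probe sets differed by -0.04 to 0.06. The DNA methyltransferase gene Dnmt3a differed by -0.30 to -0.07 over 5 probe sets, Dppa3 by 0.20 (-0.04 to 0.44) and Tet3 by 0.15 (-0.07 to 0.38), each with an interval that held 0.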

How the data were processed

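Total RNA of back skin was hybridised to Affymetrix MOE430 2.0 arrays, 3 per genotype, grouped by the labels. The authors deposited RMA values (background correction, normalisation between arrays, summary per probe set), per the submitters' processing notes, with no version given. They are read as log2, since the deposited values run from 2.39 to 14.8, and their log base was not stated in the labels. RMA makes array distributions alike, so a shift of most genes would not show. Scanner files were not used here, so no detection calls were made, and the 3 arrays per group limit the precision.

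Of 45101 rows, 64 array controls were left out. Names came from the platform annotation, updated to GRCm38.p6 through Entrez identifiers. Of 45037 probe sets, 34945 had 1 symbol, 932 several and 9160 none, and only the first were named. The brightest probe set of a gene is that with the highest mean over 6 arrays. The genotype difference came from limma (version 3.58.1, R 4.3.3; lmFit and eBayes, two-sided, without covariate or filter), adjusted by Benjamini-Hochberg over all 45037, and the code was tested on simulated data. Marker lists were compared per array with exact permutation tests in scipy 1.17.1. Figures used matplotlib 3.10.9.

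Deviations from group means correlated at 0.568, 0.359 and 0.124 for same-numbered arrays, all above 0.1, so the numbers were taken to pair them. What a number stands for is not labelled, and control 2 correlated more with knockout 3 (0.422). No pair of arrays was a duplicate (SD of their difference at least 0.199).

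The genes and lists were chosen with earlier results of these data known. Named are the 9 genes, Fzd6, their domain neighbours, Igf2r, the 4 probe sets with the smallest p of genes in each of 2 other lists, and the 5 genes of most similar pattern. Alternatives were the block, a variance trend, leaving out dim probe sets, centring, quantile normalisation, a Y-linked covariate, arrays left out, another threshold and the mean over probe sets.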

Additional observations from a re-analysis of the deposited data

How the results depend on the processing

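With 3 arrays per group and no scanner files, signal over background is unknown, and dim probe sets (6 of the 34) lie below the median level. The replicate block changed no adjusted call of the 34, and no alternative gave an adjusted p under 0.05 for any probe set of the 8 genes. All probe sets called were 0, and 3 with the replicate block. The count of the 34 at an unadjusted p under 0.05 was 3, against 10 with the replicate block and 5 without replicate 1 of both groups. With single arrays left out it was 2 to 6 (6 without control 1). The share of all probe sets at that p moved as well, from 5.21% to 12% with the block and 7.63% without replicate 1 of both groups. With single arrays left out it was 2.97% to 6.41% (5.32% without control 1). Of the 50 neighbour probe sets, 2 had such a p, against 7 with the replicate block, 1 with a variance trend and 4 after further quantile normalisation. With dim probe sets left out it was 0 of the 32 that remained. It was 5 at p under 0.1. With single arrays left out it was 0 to 6 at p under 0.05 (0 without control 2, 4 without control 3, 6 without knockout 3, 1 without knockout 1 or knockout 2). Of all probe sets, 5.4% had a p under 0.05 with the variance trend and 4.91% after further quantile normalisation. With dim probe sets left out it was 4.23% of those that remained. Without control 2, control 3, knockout 3, knockout 1 or knockout 2 the shares were 2.97%, 4.88%, 4.03%, 6.41% and 4.65%. The number of the 34 with a lower mean, an alternative examined after the data were seen, was 30, and 18 to 32 with single arrays left out, the lowest without knockout 1. Of all probe sets, 49.4% were lower, and 46.6% to 50.5% with single arrays left out. Of 112 alternative values for single genes, 106 kept their direction, with none called. The 6 that turned were those without knockout 1 for Meg3 (0.0494), Dlk1 (0.31), Peg3 (0.0461) and Ndn (0.0211), and for Dlk1 those without control 2 (0.11) and without replicate 1 of both groups (0.0024). With single arrays left out the differences spanned -0.45 to 0.05 for Meg3, -0.41 to 0.31 for Dlk1, -0.36 to 0.05 for Peg3, -0.25 to 0.02 for Ndn, -0.26 to -0.10 for Cdkn1c, -0.14 to -0.02 for Plagl1, -0.38 to -0.20 for Grb10 and -0.64 to -0.19 for Mest. As the mean over all probe sets of a gene they were -0.16 for Plagl1, -0.20 for Grb10, -0.08 for Ndn and -0.04 for Dlk1. The cause of these shifts was not tested.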
